A study of Homo sapiens with 4 samples.

Results

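The transcripts of 10 subunits of the MOZ, MORF and HBO1 histone acetyltransferase complexes were followed through 4 RNA-seq libraries of cells labelled HepG2, an established human hepatoma line. The members were chosen by gene name: the catalytic subunits KAT6A (MOZ), KAT6B (MORF) and KAT7 (HBO1), the BRPF scaffolds BRPF1, BRD1 and BRPF3, the JADE scaffolds JADE1, JADE2 and JADE3, and the small subunit MEAF6. All 10 had a row in each of the 4 gene tables, which listed 17010 genes for the plasmid pair and 16856 usable genes for the siRNA pair, and all 10 passed the filter on low counts described below. Cells had received a FLAG-JFK plasmid or the vector, or an siRNA against ING5 or a control siRNA, and each of these groups held 1 library. No dose or time after transfection is given in the labels. JFK is the older name of FBXO42, an F-box protein that selects substrates for a ubiquitin ligase.

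These complexes share a simple plan. A MYST-family enzyme carries out the acetylation, a scaffold of the BRPF or JADE family bridges it to the accessory subunits, MEAF6 stabilises the assembly, and ING4 or ING5 reads methylated histone H3 tails through a PHD finger. HBO1 can pair with either scaffold family, and the scaffold it holds steers it towards histone H3 with BRPF proteins or towards histone H4 with JADE proteins. The siRNA target of this study is therefore a gene for a partner that each of these complexes can carry.

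Since every group is a single library, differences have no replicate check and no p-value is given. Each fold is the log2 ratio of normalised counts with 0.5 added. Its exact 95% interval, by the Clopper-Pearson method for a pair of counts, covers counting error only. A gene was measured where its normalised counts averaged 20 or more in the pair. It was called when it was at least 1.5-fold apart with an interval that left out 0. Total counts were 7237325 in the library labelled JFK, 7179585 in vector, 9030075 in ING5 siRNA and 9196979 in control siRNA. ING5 had 81 counts in ING5 siRNA and 144 in control siRNA (log2 fold −0.81, interval −1.23 to −0.41). FBXO42 had 115 counts in the library labelled JFK, against 116 in vector (log2 fold 0.01, interval −0.37 to 0.40). The transcript was thus not higher beyond counting error, and the library is named by its label throughout. Of 16 hepatocyte marker genes, 2 reached 20 counts in each library, CPS1 and HNF4A; ALB, TF, TTR and FOXA2 had no row in any table. AFP had no row in the plasmid tables, 0 counts in ING5 siRNA and 1 in control siRNA. APOA1, APOB and AHSG had 2 counts or fewer wherever they were listed, and SERPINA1 had 7 or fewer. Most hepatocyte markers were thus absent or near 0 in cells labelled as a hepatoma line. These markers do not bear out that label, and the identity of the cells was not tested. The summed hepatocyte level, nearly all CPS1, was 3086 CPM (counts per 1000000 counts of the library) in the library labelled JFK, 3168 CPM in vector, 4588 CPM in ING5 siRNA and 5097 CPM in control siRNA. At least 20 counts were reached by 4 or 5 of 7 fibroblast markers, 1 or 2 of 6 endothelial markers and 1 or 2 of 6 leukocyte markers, depending on the library. Summed levels of fibroblast markers were 78.8 CPM in the library labelled JFK, 76.3 CPM in vector, 94.1 CPM in ING5 siRNA and 96.1 CPM in control siRNA. Endothelial markers summed to 164, 145, 12.4 and 26.6 CPM and leukocyte markers to 184, 183, 50.4 and 61.4 CPM in the same libraries. CDH5 made up most of the endothelial sum, at 156, 139, 9.63 and 24.4 CPM in the same order. The leukocyte sum was mostly CD68, at 172, 165, 48.4 and 59.8 CPM, while PTPRC had 8 counts or fewer in each library. Most of the hepatocyte, endothelial and leukocyte sums was thus 1 gene. The fibroblast sum was spread wider in the siRNA pair: in ING5 siRNA COL3A1 had 39.0 CPM, LUM 25.7 CPM and COL1A1 19.6 CPM. The part of these markers in the differences below was not tested.

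Under ING5 siRNA, JADE2 stood out among the 10 members, with a normalised level of 60.3% of control siRNA. KAT7 and KAT6A were lower by smaller amounts, and the intervals of the other 7 members spanned 0. All 10 members of the library labelled JFK lay within 1.5-fold of vector; JADE2 was slightly higher and KAT6B slightly lower. Between both control libraries the differences were larger than these for most members, and the JADE and BRPF families had another make-up.

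**Figure D1:**
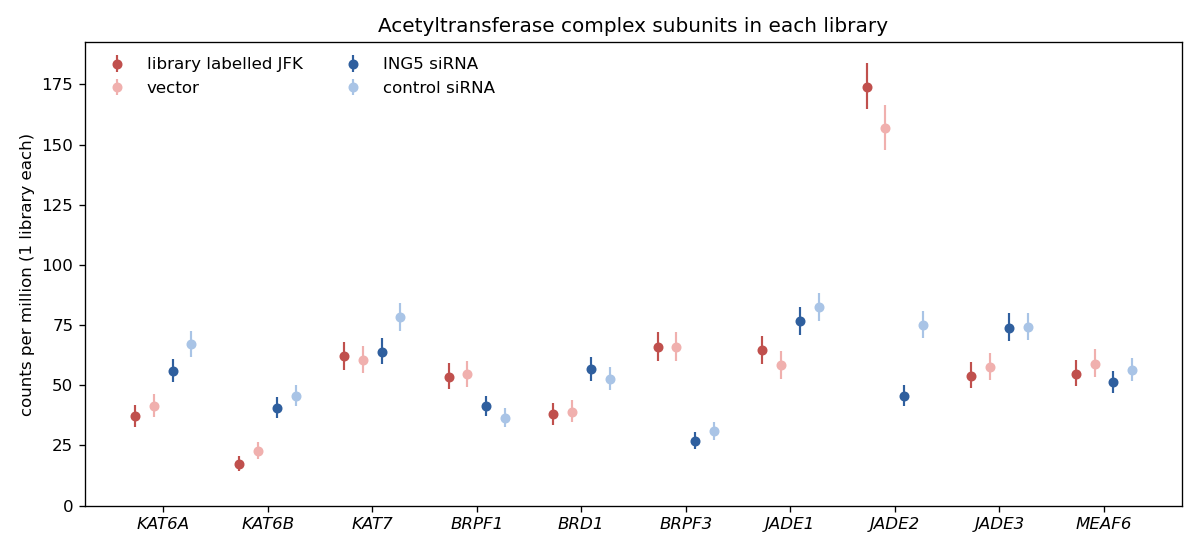
Levels in CPM, counts per 1000000 counts of the library (y axis), of the 10 subunits (x axis) in the library labelled JFK, vector, ING5 siRNA and control siRNA, 1 library each. Bars are exact 95% Poisson intervals of the count. JADE2 reached 174 CPM in the library labelled JFK and 157 CPM in vector, against 45.6 CPM in ING5 siRNA and 75.1 CPM in control siRNA.

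The catalytic subunits were read first. KAT7 (Entrez Gene 11143), the HBO1 enzyme, which acetylates histones H3 and H4 and takes part in the licensing of replication origins, had 578 counts in ING5 siRNA and 719 in control siRNA. That is a log2 fold of −0.30 (interval −0.46 to −0.14), or 81.3% of control siRNA. It had 449 counts in the library labelled JFK, against 434 in vector (log2 fold 0.07, interval −0.12 to 0.27). KAT7 was thus lower with the siRNA beyond counting error, and within it in the library labelled JFK.

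KAT6A (Entrez Gene 7994), the MOZ enzyme, is known for its fusions in acute myeloid leukaemia and for its need in blood stem cells. It had 505 counts in ING5 siRNA and 617 in control siRNA (log2 fold −0.27, interval −0.45 to −0.10). It had 268 counts in the library labelled JFK, against 297.03 expected counts in vector (log2 fold −0.12, interval −0.37 to 0.12). Its fold lay below 0 in both pairs, with an interval that left out 0 in the siRNA pair.

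KAT6B (Entrez Gene 23522), the MORF enzyme and closest relative of KAT6A, had 366 counts in ING5 siRNA and 420 in control siRNA (log2 fold −0.18, interval −0.39 to 0.02). It had 126 counts in the library labelled JFK, against 163 in vector (log2 fold −0.35, interval −0.69 to −0.003). It was the lowest member in that pair, and the upper bound of its interval lay next to 0. On the per-length scale KAT6B was the lowest of the 10 in both libraries of the plasmid pair, at 2.10 FPKM in the library labelled JFK and 2.79 FPKM in vector. In the siRNA pair it was the ninth, at 4.72 RPKM in ING5 siRNA and 5.37 RPKM in control siRNA.

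The BRPF scaffolds bring the enzyme, MEAF6 and the ING subunit together and read chromatin with their own PHD fingers, bromodomain and PWWP domain. BRPF1 (Entrez Gene 7862), the usual partner of MOZ and MORF, had 372 counts in ING5 siRNA and 336 in control siRNA (log2 fold 0.16, interval −0.05 to 0.38). In the plasmid pair it had 388 counts in the library labelled JFK, against 391 in vector (log2 fold 0.01). BRD1 (Entrez Gene 23774), also called BRPF2 and a common partner of HBO1, had 511 counts in ING5 siRNA and 484 in control siRNA (log2 fold 0.09, interval −0.09 to 0.28). It had 275 counts in the library labelled JFK, against 280 in vector. These were the only 2 members above 0 in the siRNA pair, and neither interval left out 0.

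BRPF3 (Entrez Gene 27154), a scaffold reported with HBO1, had 242 counts in ING5 siRNA and 284 in control siRNA (log2 fold −0.21, interval −0.47 to 0.04). In the plasmid pair it had 478 counts in the library labelled JFK, against 472 in vector (log2 fold 0.04, interval −0.14 to 0.23). No BRPF scaffold was separated from its control beyond counting error in either pair.

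The JADE scaffolds carry PHD fingers and lack the bromodomain of the BRPF proteins. JADE2 (Entrez Gene 23338) had 412 counts in ING5 siRNA and 691 in control siRNA, a log2 fold of −0.73 (interval −0.91 to −0.55). Of all measured genes in that pair, 2.29% had a lower log2 fold. In the plasmid pair JADE2 had 1260 counts in the library labelled JFK, against 1127 in vector (log2 fold 0.19, interval 0.07 to 0.30), or 1.14-fold. Both intervals left out 0, on opposite sides.

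JADE1 (Entrez Gene 79960), which is also known as a partner of the VHL tumour suppressor, had 692 counts in ING5 siRNA and 757 in control siRNA (log2 fold −0.11, interval −0.26 to 0.04). It had 467.25 expected counts in the library labelled JFK, against 418.21 in vector (log2 fold 0.18, interval −0.01 to 0.38). JADE1 lay as far above vector as JADE2, with fewer reads and a lower bound just below 0.

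JADE3 (Entrez Gene 9767), an X-linked paralogue, had 668 counts in ING5 siRNA and 683 in control siRNA (log2 fold −0.02, interval −0.17 to 0.14). It had 390 counts in the library labelled JFK, against 414 in vector (log2 fold −0.06, interval −0.27 to 0.14). Of the 10 members it lay closest to its control in the siRNA pair.

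MEAF6 (Entrez Gene 64769) is a short accessory protein shared with the TIP60 complex. It had 462 counts in ING5 siRNA and 519 in control siRNA (log2 fold −0.15, interval −0.34 to 0.03). It had 397.03 expected counts in the library labelled JFK, against 423.53 in vector (log2 fold −0.07, interval −0.27 to 0.13). Of the ING partners, ING4 had 203 counts in ING5 siRNA and 213 in control siRNA, and ING5 had 145.44 expected counts in the library labelled JFK, against 180.87 in vector. The intervals of both spanned 0.

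**Figure D2:**
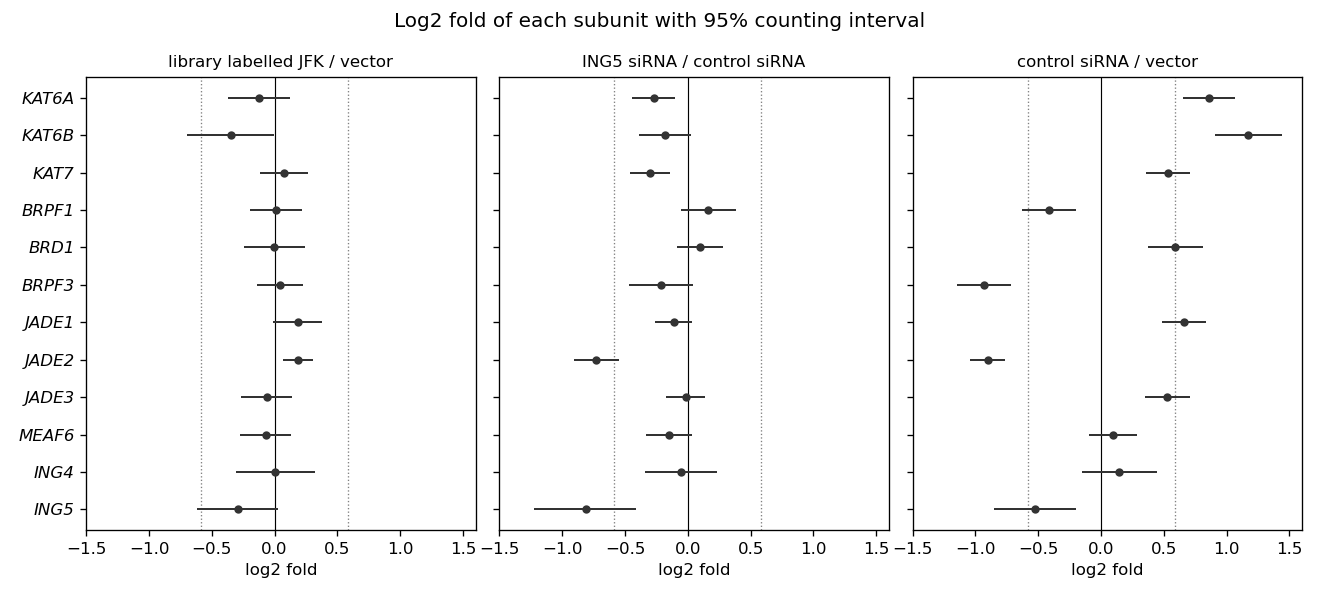
Log2 folds (x axis) of the 10 subunits and of ING4 and ING5 (y axis) for the library labelled JFK over vector, ING5 siRNA over control siRNA, and control siRNA over vector. Points are folds, bars are 95% counting intervals and dotted lines mark 1.5-fold. JADE2 is the only subunit beyond 1.5-fold in the middle panel (log2 fold −0.73), and 6 subunits lie beyond it in the right panel.

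Read as a group, 8 of the 10 members lay below 0 with ING5 siRNA and 2 above, with a median log2 fold of −0.17. Over all 11634 measured genes the median was −0.01, with 51.4% below 0 and 48.6% above. The intervals of 3 members lay wholly below 0 and none above, where 20.6% of all measured genes lay below, 18.3% above and 39.0% on either side. The 1 called member, JADE2, stands against 3.96% of all genes called lower, 3.42% called higher and 7.38% called in either direction. The median in the library labelled JFK was 0.01, with 5 members above 0 and 5 below, where 50.5% and 49.5% of all 12107 measured genes lay, around a median of 0.002. Of the 5 members above, BRPF1 and BRPF3 changed sides with some of the other settings tried. There 2 of 10 intervals left out 0, 1 on each side, against 14.3% of all genes above, 11.2% below and 25.5% on either side. None of the 10 members was called, against 0.991% of genes called higher, 1.51% lower and 2.50% in either direction. No member was 2-fold apart in either pair, where 1.46% of genes were with ING5 siRNA (0.765% higher, 0.696% lower) and 0.570% in the library labelled JFK (0.273% higher, 0.297% lower).

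Depth set how small a difference could be seen. Among members whose interval spanned 0 in the siRNA pair, the interval of BRPF1 reached a log2 fold of 0.38 and that of BRPF3 reached −0.47. In the plasmid pair the interval of JADE1 reached 0.38 and that of KAT6A reached −0.37. Spanning 0 therefore does not show equal levels.

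Within a family, the ratio of 2 paralogues in the same library needs no scaling between libraries. JADE2 had 0.595 counts per JADE1 count in ING5 siRNA and 0.913 in control siRNA, a ratio of ratios of 0.652 (exact conditional 95% interval 0.554 to 0.768). Against JADE3 the ratio of ratios was 0.610 (0.517 to 0.719). JADE2 was thus lower relative to both of its paralogues, while JADE1 over JADE3 came to 0.935 (0.804 to 1.09). JADE2 had 2.698 counts per JADE1 count in the library labelled JFK, against 2.696 in vector, a ratio of ratios of 1.001 (0.855 to 1.17). JADE2 over JADE3 stood at 3.23 in the library labelled JFK, against 2.72 in vector (1.19, interval 1.01 to 1.40).

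Of the 7 paralogue pairs in the KAT6, BRPF and JADE families, 3 had an interval that left out 1 with ING5 siRNA and 1 in the library labelled JFK. The third of these in the siRNA pair was BRPF3 over BRPF1, with 0.651 in ING5 siRNA and 0.845 in control siRNA (0.770, interval 0.610 to 0.971). KAT6B over KAT6A had a ratio of ratios of 1.06 (0.883 to 1.28) with ING5 siRNA and of 0.857 (0.637 to 1.15) in the library labelled JFK. Of these pairs, JADE2 over JADE1 was set out at the start, with earlier results known, and the other 6 were added after the values were seen. Between control siRNA and vector, a comparison described below, 5 of the 7 intervals left out 1. There JADE2 over JADE1 had a ratio of ratios of 0.339 (0.290 to 0.395) and JADE2 over JADE3 of 0.372 (0.317 to 0.435). A lower JADE2 relative to its paralogues was thus not particular to ING5 siRNA. The share for other gene pairs was not computed.

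Levels per length show which paralogue prevailed. JADE2 made up 19.98% of the summed JADE RPKM in ING5 siRNA and 28.4% in control siRNA, and 52.2% of the JADE FPKM in the library labelled JFK, against 50.1% in vector. JADE2 was therefore the leading JADE transcript in the plasmid pair and the lowest in the siRNA pair. BRD1 made up 48.3% of the BRPF family in ING5 siRNA and 47.0% in control siRNA, against 27.0% in the library labelled JFK, against 27.4% in vector. KAT6A led KAT6B in all 4 libraries, from 55.8% of their sum in ING5 siRNA to 65.1% in the library labelled JFK. The tables of both pairs were normalised separately and list other gene lengths for 6 members (JADE1 has 5771 bases in the siRNA tables and 4811.31 in the plasmid tables), so levels set across pairs are descriptions.

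**Figure D3:**
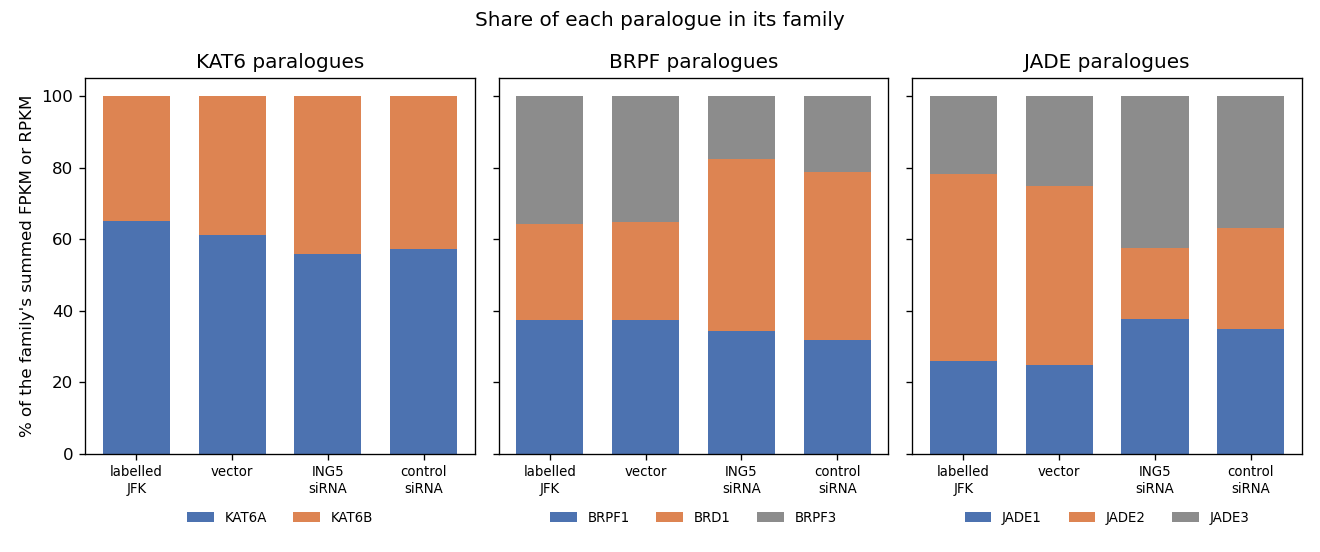
Share of each paralogue in the summed FPKM (plasmid pair) or RPKM (siRNA pair) of its family, in percent (y axis), for the 4 libraries (x axis). In the JADE panel JADE2 takes 52.2% in the library labelled JFK, against 50.1% in vector, but 19.98% in ING5 siRNA and 28.4% in control siRNA.

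JADE2 also took another share of the reads of all 10 members together. It held 8.57% of them in ING5 siRNA (exact binomial interval 7.79% to 9.40%) and 12.5% in control siRNA (11.7% to 13.4%). It held 28.0% in the library labelled JFK (26.7% to 29.3%) and 25.5% in vector (24.2% to 26.8%). The sum of the members was 532 CPM in ING5 siRNA and 599 CPM in control siRNA, and 622 CPM in the library labelled JFK and 616 CPM in vector.

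The order of levels per length was similar within a pair. KAT7 led in ING5 siRNA at 17.3 RPKM and in control siRNA at 21.3 RPKM, followed by JADE3 and JADE1 in both. BRPF3 closed the order at 4.39 RPKM in ING5 siRNA and 5.10 RPKM in control siRNA, not separated beyond counting error from KAT6B above it in either library. JADE2 held rank 7 in ING5 siRNA and rank 4 in control siRNA. In control siRNA JADE2 (11.6 RPKM), MEAF6 (11.5 RPKM) and BRD1 (11.4 RPKM) followed each other with no neighbours apart beyond counting error. In the plasmid pair JADE2 led at 26.5 FPKM in the library labelled JFK, against 24.0 FPKM in vector, and KAT7 followed at 16.8 FPKM and 16.6 FPKM in the same libraries. The middle of the order was close: in the library labelled JFK MEAF6, BRPF1, JADE3 and BRPF3 ran from 11.3 down to 10.7 FPKM, and in vector MEAF6, JADE3, JADE1, BRPF1 and BRPF3 ran from 12.2 down to 10.7 FPKM, with no neighbours apart beyond counting error. Of 9 neighbouring pairs, 7 were apart in ING5 siRNA, 4 in control siRNA, 6 in the library labelled JFK, against 5 in vector.

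The control siRNA library was set against vector to show how far libraries without either agent lay apart. This comparison shares a library with each of the others, and its tables were made in different ways, with whole counts in the siRNA tables and expected counts in the plasmid tables. KAT6B was 2.24-fold higher in control siRNA (log2 fold 1.17, interval 0.90 to 1.44) and KAT6A 1.81-fold higher (0.86, interval 0.66 to 1.06). JADE1 lay at 0.66, BRD1 at 0.59, KAT7 at 0.53 and JADE3 at 0.52, all with intervals above 0. BRPF3 lay at −0.93 (interval −1.15 to −0.71), JADE2 at −0.90 (interval −1.04 to −0.76) and BRPF1 at −0.41. MEAF6, at 0.10, was the 1 member whose interval spanned 0, and it lay at −0.07 with total-count scaling. Of the 10 members 6 intervals lay above 0 and 3 below, where 41.9% and 37.8% of all 12012 measured genes did, 79.7% together. There 6 were called, 4 higher and 2 lower, against 56.9% of all genes, 29.4% higher and 27.6% lower. With total-count scaling 4 members were called, 2 higher and 2 lower, since JADE1 (0.49) and BRD1 (0.42) were then less than 1.5-fold apart. With that scaling 41.3% of the called genes were higher, against 51.6% with the scaling used here. In all, 7 members lay above 0 and 3 below, where 52.0% and 48.0% of genes did, and KAT6B was the 1 member at least 2-fold apart, where 33.4% of genes were (15.9% higher, 17.5% lower). With total-count scaling KAT6B lay just under 2-fold (log2 fold 0.997), while BRPF3 (−1.10) and JADE2 (−1.07) lay beyond it. Side by side, JADE2 had a log2 fold of −0.90 between the control libraries and −0.73 with ING5 siRNA. Cells, handling, library and quantification cannot be told apart in this comparison.

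Sequence upstream of the annotated starts is shown for 3 genes. These are JADE2 and KAT7, whose intervals lay below 0 with ING5 siRNA, and JADE1, a paralogue of JADE2 whose interval spanned 0. The windows are 250 bases before a start listed by RefSeq on GRCh38.p14, 5′ to 3′ on the gene's own strand, which is the plus strand for all 3. Capitals mark the GC box (GGGCGG) and the ETS core (CCGGAAG), searched on both strands. JADE2 has 6 listed starts, and the first and the most GC-rich of their windows are given (chr5:134523759-134524008 and chr5:134525858-134526107). The windows of JADE1 (chr4:128809450-128809699) and KAT7 (chr17:49788431-49788680) are those of the first listed start, of 5 for JADE1 and 1 for KAT7.
JADE2, start 1: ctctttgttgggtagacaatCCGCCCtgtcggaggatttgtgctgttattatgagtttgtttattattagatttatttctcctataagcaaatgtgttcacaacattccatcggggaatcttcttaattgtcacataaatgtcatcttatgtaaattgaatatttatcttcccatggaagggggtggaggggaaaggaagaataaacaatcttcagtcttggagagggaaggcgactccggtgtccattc
JADE2, start 5: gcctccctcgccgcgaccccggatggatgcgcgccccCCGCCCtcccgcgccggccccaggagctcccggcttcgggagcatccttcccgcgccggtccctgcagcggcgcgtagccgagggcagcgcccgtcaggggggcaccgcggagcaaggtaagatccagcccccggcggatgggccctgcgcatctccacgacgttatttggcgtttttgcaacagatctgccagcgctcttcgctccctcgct
JADE1, start 1: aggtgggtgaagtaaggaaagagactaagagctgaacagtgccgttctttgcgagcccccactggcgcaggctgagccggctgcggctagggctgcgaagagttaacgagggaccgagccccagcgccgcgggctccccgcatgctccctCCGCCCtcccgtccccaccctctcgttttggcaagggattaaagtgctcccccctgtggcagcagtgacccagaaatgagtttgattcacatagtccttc
KAT7, start 1: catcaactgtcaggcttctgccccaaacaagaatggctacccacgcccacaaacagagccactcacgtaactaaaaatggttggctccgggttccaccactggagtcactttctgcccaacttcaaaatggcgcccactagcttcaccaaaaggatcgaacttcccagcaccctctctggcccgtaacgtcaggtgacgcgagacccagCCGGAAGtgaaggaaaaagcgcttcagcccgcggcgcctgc

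The first JADE2 window had a GC content of 39.6% with 5 CpG dinucleotides, and that of start 5 had 72.4% with 32. The first JADE1 window had 61.2% with 15 and the KAT7 window 56.4% with 14. The most GC-rich JADE1 window, that of start 2 and not printed, had 81.6% with 49. Over the first window of 27305 genes the median was 58% GC and 11 CpG. RefSeq windows were matched for 9 members. KAT6A, whose interval also lay below 0 with ING5 siRNA, had none. The GC box was in the first window of 7 of the 9 and in 42.3% of all genes' first windows. KAT6B and KAT7 lacked it there, though the other listed windows of KAT6B held it. In first windows the ETS core was in 2 of 9, KAT7 and MEAF6, and in 8.82% of all. The window of JADE2 start 6, not printed, also held it. The CCAAT box (CCAAT) was in the first window of none of the 9 and in 33% of all. Later windows held it for KAT6B (start 3) and JADE1 (starts 3 and 4). In first windows the interferon response core (TTTC, 2 free bases, TTTC) was in none and in 3.07% of all. The NF-kB pattern (GGG, 2 free bases, TTTCC) was there in none and in 1.73%. Which start these cells used was not analysed here, and a match or its absence is a description of these letters only.

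Exons of members overlap other genes in places, and the sources used here do not say whether reads were counted by strand. By GENCODE release 29, JADE1 shares 3.37% of its exon bases with SCLT1 on the opposite strand, and KAT7 shares 2.51% with FAM117A on the opposite strand and 2.68% with a non-coding gene on its own strand. KAT6B shares 1.11% with an antisense gene. KAT7 and MEAF6 each have a pseudogene named in RefSeq, KAT7P1 and MEAF6P1, and how reads shared with it were counted is not stated. Expected counts were not whole for KAT6A in vector and for JADE1 and MEAF6 in both plasmid libraries. JADE2 shares no exon bases with another gene there, and its counts were whole in all 4 libraries.

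Related complexes were read from lists set with earlier results of these data known. With ING5 siRNA the ING family had a median log2 fold of −0.05, from ING1 at 0.47 to ING5 at −0.81; ING1 joins the SIN3 deacetylase complex. TIP60 complex genes, which acetylate histone H4 and H2A, had a median of 0.05, and 0 of 16 were called, against 7.38% of all measured genes, from DMAP1 at 0.24 to the scaffold gene EPC1 at −0.47 (interval −0.73 to −0.21). Genes of the MOF complexes, named after the enzyme KAT8, had a median of −0.12, with 11 of 12 below 0, against 51.4% of all genes, and 0 called, against 7.38%, from MSL1 at 0.30 to KANSL2 at −0.24. The p300 and SAGA acetyltransferase list had a median of −0.20, below that of the 10 members, with 11 of 14 below 0, against the same 51.4%. In it TADA3, a SAGA adaptor, had 196 counts in ING5 siRNA and 362 in control siRNA (log2 fold −0.87, interval −1.13 to −0.61), and the enzyme gene KAT2B lay at 0.44. SIN3 complex genes had a median of −0.04; SAP30L, a SIN3 subunit, had 114 counts in ING5 siRNA and 262 in control siRNA (log2 fold −1.18), and BRMS1L lay at 0.32. TADA3 was the 1 called gene of 14 in the p300 and SAGA list, and SAP30L the 1 of 16 in the SIN3 list. Over all measured genes 3.96% were called lower and 7.38% in either direction. At these shares 1 call in a list of such length is no result about the complex, and the same holds for JADE2 among the 10 members.

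Origin licensing genes, a process in which HBO1 takes part, had a median log2 fold of −0.06 with ING5 siRNA and 0 of 18 were called, against 7.38% of all measured genes. At that share of all genes, a count of 0 in a list of this length is no result about the list. ORC1, the largest origin recognition subunit, had 518 counts in ING5 siRNA and 734 in control siRNA (−0.49, interval −0.65 to −0.32), and ORC2 lay at 0.25. Of 21 genes in the HOX and MEIS list, a set linked to MOZ through the HOX clusters, 13 were measured, with a median of −0.05. The lowest was HOXA5, called lower with 15 counts in ING5 siRNA and 33 in control siRNA (log2 fold −1.10, interval −2.11 to −0.20), and the highest was HOXA13 at 0.40.

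The same lists had medians in the library labelled JFK of 0.01 for the ING family, −0.02 for TIP60, 0.03 for MOF, 0.04 for p300 and SAGA, −0.03 for SIN3 and −0.10 for origin licensing. No gene of these 6 lists was called, against 2.50% of all measured genes, a share near which 0 lies for lists of these lengths. Their extremes were ING2 at 0.20 and ING5 at −0.29, KAT5 at 0.23 and EPC1 at −0.29, KAT8 at 0.17 and OGT at −0.18, TADA2A at 0.34 and KAT2B at −0.46, SAP30L at 0.46 and BRMS1L at −0.28, and CDT1 at 0.26 and ORC5 at −0.47. The 12 measured genes of the HOX and MEIS list had a median of −0.21, from HOXA11 at 0.08 to MEIS1, with 27 counts in the library labelled JFK, against 53 in vector (−0.94, interval −1.67 to −0.25), the 1 called gene.

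**Figure D4:**
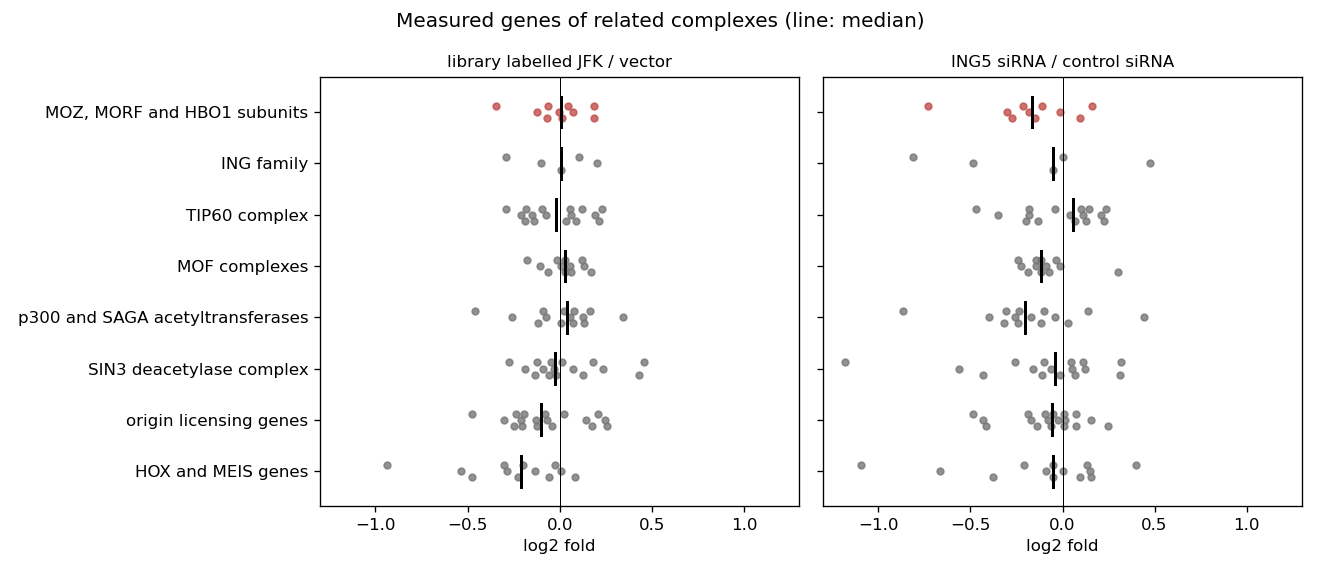
Log2 folds (x axis) of the measured genes of each list (y axis) for the library labelled JFK over vector and ING5 siRNA over control siRNA; each point is a gene and the black line is the list's median. The 10 MOZ, MORF and HBO1 subunits centre on 0.01 on the left and on −0.17 on the right, where JADE2 lies apart from the other 9 at −0.73.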

How the data were processed

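The 4 gene tables hold 1 library each. The submitters' processing notes name the tools FastQC, fastp, STAR and DESeq2, and GRCh37 and hg19 as builds. Their versions and roles, and the read counter, are not stated there. The plasmid tables hold FPKM and the siRNA tables RPKM, per the file headers. The headers call the other deposited column only expression. From its values it was taken to hold expected counts in the deposited plasmid tables (69.0% of values whole in the library labelled JFK, 68.6% in vector) and raw counts in the deposited siRNA tables (100% whole). Entrez identifiers were matched to symbols through RefSeq of GRCh38.p14 (16900 of 17010 identifiers in the plasmid tables and 16771 of 16860 rows in the siRNA tables). Rows with a repeated identifier (4 per siRNA table) and 1 gene with a blank count in the library labelled JFK were left out.

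Counts were scaled within each pair by TMM factors (log-ratio trim 0.3, intensity trim 0.05) with scipy 1.17.1, pandas 2.3.3 and numpy 2.4.6 under Python 3.11.15, and plotted with matplotlib 3.10.9. Expected counts were rounded for intervals. CPM are counts over the library total. No molecular identifiers are described, so intervals and floors cover counting error alone. The method was tested on data simulated with counting error alone, so that test does not cover variation between libraries. Named genes were all members, ING4, ING5, FBXO42 and the highest and lowest member of each list. The members, lists and thresholds were chosen with earlier results of these data known. With 1 library per group no test across genes was run. A gene of the HOX and MEIS list is not reported here.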

Additional observations from a re-analysis of the deposited data

How the results depend on the processing

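Alternatives were median-of-ratios and total-count scaling, the deposited FPKM or RPKM (0.01 added), no filter, a mean of at least 100, 5 counts added, whole counts only, and leaving out genes whose count and FPKM or RPKM disagree (1116 in the plasmid pair at a 5% tolerance and 145 in the siRNA pair at 0.001 counts, with 0 members among them). JADE2 with ING5 siRNA ran from −0.75 to −0.72, and JADE2 over JADE1 from −0.62 to −0.61, on the log2 scale. The range of JADE2 over JADE1 was narrow by construction, because a ratio of paralogues within a library needs no scaling. The members' median ran from −0.18 to −0.16 with ING5 siRNA, from −0.04 to 0.01 in the library labelled JFK, and from 0.36 to 0.57 between control siRNA and vector. Of the 6 members called between control siRNA and vector, 4 were called with total-count scaling (JADE1 at 0.49 and BRD1 at 0.42 were not), and 5 with 5 counts added (BRD1 at 0.58 was not). With whole counts only, 3 members were called, where 7 members are left and fewer genes enter, and BRD1 lay at 0.50. JADE2 moved there to −1.07 with total-count scaling, which shifted the median of all genes in that comparison to −0.12, against 0.05 with TMM. MEAF6 changed sign there (−0.07 to 0.14), as did BRPF1 (−0.03 to 0.01) and BRPF3 (−0.001 to 0.04) in the library labelled JFK, all with intervals that span 0. Of all genes called in the library labelled JFK, 39.6% were higher with TMM and 29.3% with total-count scaling; between control siRNA and vector it was 51.6% and 41.3%. FPKM against RPKM was not run between control siRNA and vector, because the listed gene lengths differ. No paired analysis was possible because each group holds 1 library. For the same reason no library could be left out.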
